A study of Saccharomyces cerevisiae with 48 samples.

Results

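The outermost 20 kb of the budding yeast chromosomes were examined as 1-kb bins whose midpoint lay under 20 kb from either end of its chromosome. Among the 11338 bins that held a value in any sample, the rule selected 291 that were present in all 44 S-phase samples and 12 that were present in some of them, and these bins fell at 29 of the 32 chromosome ends. Synchronized cultures of 4 strains had been sampled in G1 and at 11 timepoints between 5 and 60 min after they were released into S-phase, and their genomic DNA sequenced. The measurement is copy number, the ratio of reads in a bin at a timepoint to reads in the same bin in G1, which climbs toward 2 as the bin is replicated.

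All 4 strains were haploid *MATa* cells of the W303 background and all lacked *SML1*, an inhibitor of ribonucleotide reductase, so *sml1∆* was shared by the comparators. In the *sml1∆ SSDDCS* strains extra copies of *SLD3*, *SLD2*, *DPB11*, *DBF4*, *CDC45* and *SLD7*, 6 limiting factors of replication initiation, were driven by the galactose-inducible *GAL1-10* promoter. The authors write the over-expressed *SLD3* and *DBF4* copies as *SLD3-A* and *Dbf4-A*. Galactose was added during the alpha factor arrest, and cells of every strain were released into galactose. Strains came as pairs in 2 backgrounds. The first pair was *sml1∆ SSDDCS ars1008∆ ars1009∆* and *sml1∆ ars1008∆ ars1009∆*, and the other was *sml1∆ SSDDCS ars816∆ ars818∆* and *sml1∆ ars816∆ ars818∆*. In the annotation used here ARS818 lies 170 kb, ARS1008 204 kb and ARS1009 229 kb from the nearest chromosome end, so these deleted origins were far from every bin described. Each strain had 1 time course, so no difference between strains has a replicate check. An SD given with a value is the spread over neighboring bins or over ends, which are not replicates.

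Yeast telomeres are arrays of short TG-rich repeats bound by Rap1, with Rif1, the Sir proteins and the Ku complex. The DNA next to them holds an X element at nearly every end and Y′ elements at many, both of which carry potential origins. Rif1 brings protein phosphatase 1 to these regions, which counters the Dbf4-dependent kinase that fires origins, and telomere-proximal origins are known for firing late or staying passive. Dbf4 is among the 6 factors over-expressed together here, and its own part was not tested.

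The sequences below show the DNA that defines these regions. They come from the RefSeq R64 assembly of S288C, not from W303, whose subtelomeres can differ. The terminal 60 bases of 2 ends, read toward the telomere, are shown with the hexamer TGTGGG in capitals. It was searched on both strands and occurs in 1.61% of all 60-base tiles of the genome.

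Right end of Chr VI (chrVI:270102-270161, plus strand): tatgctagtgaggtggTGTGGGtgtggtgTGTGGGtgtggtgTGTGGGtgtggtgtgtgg
Left end of Chr III (chrIII:1-60, minus strand): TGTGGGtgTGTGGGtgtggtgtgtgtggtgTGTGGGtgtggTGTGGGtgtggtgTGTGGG

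The annotation places 40 of its 352 origins in the outermost 20 kb. Yeast origins depend on a match to the ARS consensus sequence, the site bound by the origin recognition complex, which in many of them is not exact. An exact match to the 11-base consensus on either strand was present in 24 of the 40 end origins (60.0%) and in 100 of the 312 others (32.1%). Among 250-base tiles a match was found in 2.94% of those in the outermost 20 kb and in 1.49% of the rest. The matches at the origins named below for their timing are shown with 15 bases on either side, the match in capitals. The early origins ARS736 and ARS1333 held none.

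ARS523, right end of Chr V (chrV:569622-569662, plus strand): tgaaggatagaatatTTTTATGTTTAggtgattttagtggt
ARS1632, right end of Chr XVI (chrXVI:942419-942459, plus strand): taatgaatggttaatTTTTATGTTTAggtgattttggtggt
ARS102, left end of Chr I (chrI:738-778, minus strand): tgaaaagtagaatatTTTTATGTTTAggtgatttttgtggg
ARS300, left end of Chr III (chrIII:1035-1075, minus strand): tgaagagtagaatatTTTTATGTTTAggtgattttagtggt
ARS301, left end of Chr III (chrIII:11242-11282, plus strand): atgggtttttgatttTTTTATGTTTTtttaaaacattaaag
ARS610, right end of Chr VI (chrVI:269755-269795, plus strand): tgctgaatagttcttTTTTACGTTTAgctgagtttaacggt

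ARS523, ARS1632, ARS102 and ARS300 shared an unbroken run of 22 bases, ATTTTTATGTTTAGGTGATTTT, that spans the match. Searched on both strands, this run occurred 28 times in the assembly, each time in the outermost 20 kb and once at each of 28 ends. No copy lay elsewhere. By the mean over the 4 strains ARS523 and ARS1632 were among the earliest end origins and ARS102 and ARS300 among the latest. The same run was thus present in both classes. ARS102 was late only in the *sml1∆* strains. In the *sml1∆ SSDDCS* strains it had 14.55 and 19.5 min, the median of the measured end origins.

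Much of the end DNA is repeated between ends, and many of its bins hold no value. Of 640 bins possible in the outermost 20 kb, 337 held no value in any sample, so that 47.3% were measured, against 96.5% of the bins elsewhere. The bins with a value were 28 of 160 within 5 kb of the end, 64 between 5 and 10 kb, 87 between 10 and 15 kb and 124 between 15 and 20 kb. In the median bin with a value 100% of 31-base words were unique in the assembly, against 5.50% in the median absent bin. No bin held a value at the right end of Chr I or the left ends of Chr IX and Chr X. The right end of Chr VI was covered in full, with 20 bins, the outermost centered 0.661 kb from the end. The results below therefore describe mostly unique sequence, although 8 bins with a value had under 50% unique words and 13 absent bins had 90% or more. Read counts were not part of the files used, so the depth behind each ratio is unknown and no counting interval was computed.

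The copy number of the ends against the rest of the genome was followed first. In *sml1∆ SSDDCS ars1008∆ ars1009∆* cells the end bins had a median copy number of 1.53 ± 0.135 at 15 min (SD over bins), against 1.48 ± 0.136 in the rest. At 20 min the values were 1.77 ± 0.140 at the ends and 1.66 ± 0.182 in the rest, the widest gap of that time course. By then 97.7% of the end bins had reached 1.5, against 77.0% of the other bins. The ends were thus ahead of the bulk of the genome through the steep part of S-phase in this strain.

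In *sml1∆ ars1008∆ ars1009∆* cells the order was the other way round. At 20 min the ends had a median of 1.36 ± 0.211 and the rest 1.44 ± 0.237. At 25 min the ends had 1.498 ± 0.202 and the rest 1.64 ± 0.210, with 49.7% of the end bins and 73.4% of the other bins at 1.5 or more. Bins within 10 kb of centromeres, the early reference of the genome, stood at 1.87 at that timepoint.

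The other pair showed the same orders. In *sml1∆ SSDDCS ars816∆ ars818∆* cells the ends were at 1.57 ± 0.125 and the rest at 1.496 ± 0.147 at 20 min, with 73.5% and 49.0% of the bins at 1.5 or more. In *sml1∆ ars816∆ ars818∆* cells the ends were at 1.64 ± 0.177 and the rest at 1.72 ± 0.204 at 30 min. At 60 min the ends lay at 1.99, 1.96, 2.03 and 2.01 in the 4 strains in the order *sml1∆ SSDDCS ars1008∆ ars1009∆*, *sml1∆ ars1008∆ ars1009∆*, *sml1∆ SSDDCS ars816∆ ars818∆* and *sml1∆ ars816∆ ars818∆*, close to 2 in every strain. All gaps were smaller than the SD over bins, and each bin's ratio carries the scaling error of its sample.

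**Figure D1:**
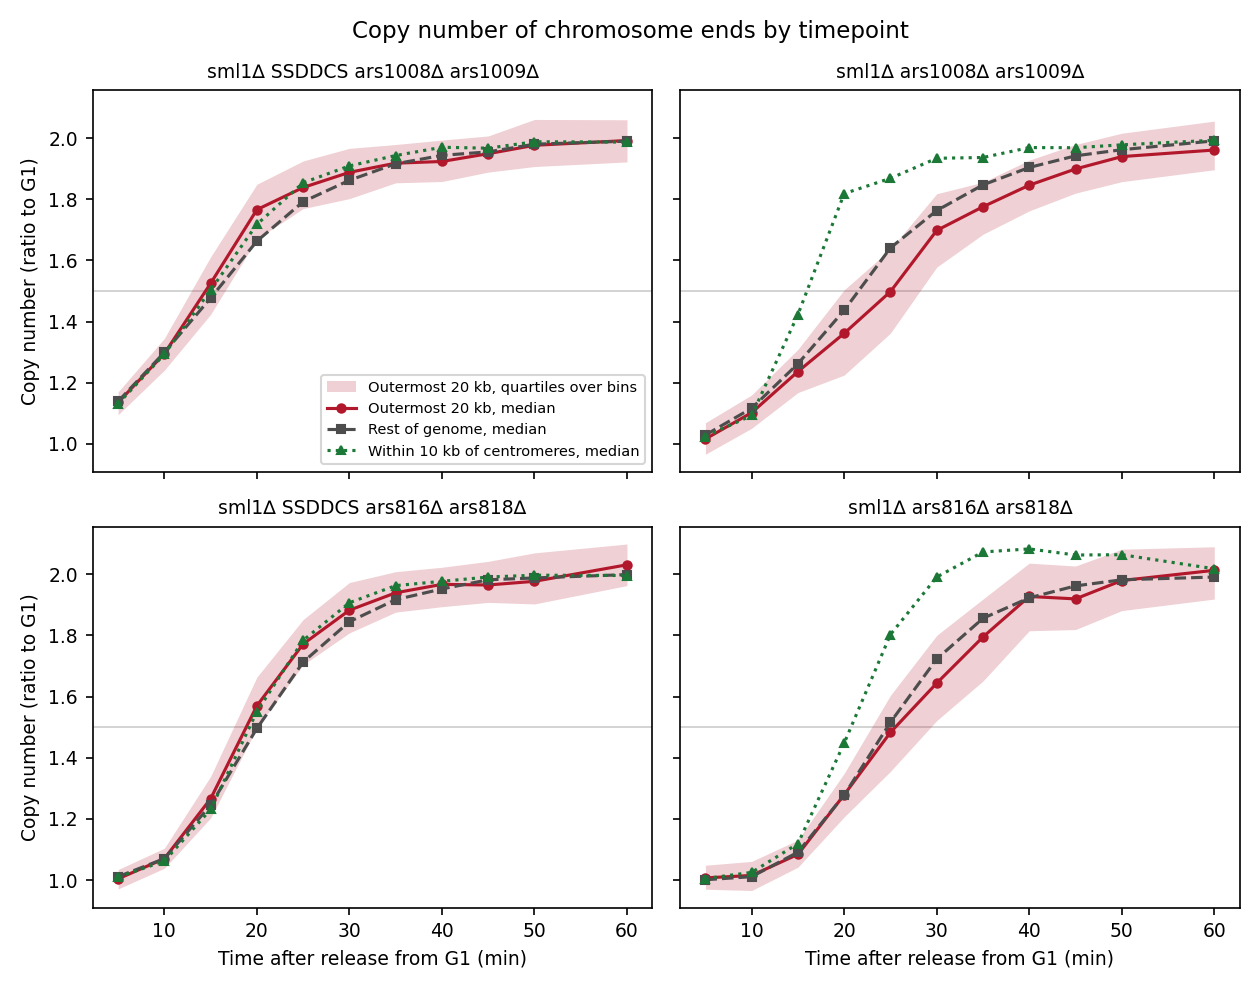
Copy number (ratio to G1) against time after release (min) in the 4 strains, as the median over bins of the outermost 20 kb (circles, shaded quartiles over bins), the rest of the genome (squares) and bins within 10 kb of centromeres (triangles). At 20 min the ends lie above the rest in both *sml1∆ SSDDCS* strains, at 1.77 against 1.66 and 1.57 against 1.496, and at 30 min they lie below it in both *sml1∆* strains, at 1.70 against 1.76 and 1.64 against 1.72.

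To reduce each bin to a single time, its timepoints were fitted with a logistic curve rising between asymptotes of 1 and 2. *T*_rep_ is the time at which this curve crossed a copy number of 1.5. The median *T*_rep_ of the ends was 14.7 min in *sml1∆ SSDDCS ars1008∆ ars1009∆* cells (301 bins fitted), against 16.1 min in the rest of the genome. In *sml1∆ ars1008∆ ars1009∆* cells it was 25.05 min (298 bins), against 22.2 min in the rest. The ends were thus 1.40 min earlier than the rest with *SSDDCS* and 2.84 min later without it. In *sml1∆ SSDDCS ars816∆ ars818∆* cells the ends had a median of 19.6 min (297 bins) and the rest 20.7 min, a difference of -1.14 min. In *sml1∆ ars816∆ ars818∆* cells the ends had 26.4 min (296 bins) and the rest 25.2 min, a difference of 1.125 min. The end-minus-rest values of the *sml1∆ SSDDCS* strains were both below 0 and those of the *sml1∆* strains both above it. With 2 strains against 2, the exact two-sided permutation test gave p = 0.333, which is the smallest p this design allows. Across all 4 strains together the exact two-sided sign-flip test against no difference gave p = 0.875, where 0.125 is the smallest possible. That test pools both kinds of strain, whose values had opposite signs and offset each other. It cannot show whether the ends differed from the rest within either kind.

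Ranks within a strain do not depend on the overall speed of its S-phase. The median end bin stood at the percentile 36.0 of all bins in *sml1∆ SSDDCS ars1008∆ ars1009∆* cells and 68.8 in *sml1∆ ars1008∆ ars1009∆* cells. In the *ars816∆ ars818∆* background it stood at 36.3 with *SSDDCS* and 60.1 without. Of the end bins, 0.664% with *SSDDCS* and 21.5% without it were among the latest 10% of all bins in the *ars1008∆ ars1009∆* background, and 0.337% with and 14.9% without in the *ars816∆ ars818∆* background. Almost no end bin was among the last to replicate in the *sml1∆ SSDDCS* strains, whereas in the *sml1∆* strains the ends exceeded the 10% that all bins give.

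The ends were also more alike in timing with *SSDDCS*. Their interquartile range of *T*_rep_ was 3.71 min in *sml1∆ SSDDCS ars1008∆ ars1009∆* cells and 7.31 min in *sml1∆ ars1008∆ ars1009∆* cells, while that of the rest was 5.50 min with *SSDDCS* and 7.36 min without it. In the *ars816∆ ars818∆* background the ends spanned 3.29 min with *SSDDCS* and 6.21 min without, and the rest 4.61 min with and 5.89 min without. The ends were narrower than the rest in the *sml1∆ SSDDCS* strains and about as wide in the *sml1∆* strains. Bins 20 to 50 kb from an end spanned 4.195 and 3.36 min with *SSDDCS* in that order of backgrounds, and 7.135 and 5.615 min without. The narrower range with *SSDDCS* was thus also seen next to the outermost 20 kb.

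Centromeres, where kinetochores are known to recruit Dbf4, served as the early reference. In the *sml1∆* strains the median bin within 10 kb of them stood at percentile 9.89 (*ars1008∆ ars1009∆*) and 10.5 (*ars816∆ ars818∆*). With *SSDDCS* it stood at 40.5 and 36.9 in that order, so these bins were among the earliest only in the *sml1∆* strains. The ends and the bins within 10 kb of centromeres differed in median *T*_rep_ by -0.42 min in *sml1∆ SSDDCS ars1008∆ ars1009∆* cells, at 14.7 and 15.1 min. In *sml1∆ ars1008∆ ars1009∆* cells the ends were 8.97 min later, at 25.05 min against 16.1 min at centromeres. In the *ars816∆ ars818∆* background the difference was -0.05 min with *SSDDCS* and 5.61 min without. The -0.42 min was -0.02 min without the 15-min and -0.07 min without the 20-min sample. The separation of ends from centromeres in the *sml1∆* strains was thus near 0 in the *sml1∆ SSDDCS* strains. The exact two-sided permutation test of 2 strains against 2 gave p = 0.333, the smallest possible, and the sign-flip test of all 4 strains against no difference, which pools both kinds, gave an exact p = 0.5.

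Values on either side of the 20-kb border lay close together. Bins centered 19 to 20 kb from an end, just inside, had a median *T*_rep_ of 14.5 min with *SSDDCS* and 23.2 min without it in the *ars1008∆ ars1009∆* background, and of 18.9 min with and 25.0 min without in the *ars816∆ ars818∆* background. Bins at 20 to 21 kb, just outside, had 14.6 min with *SSDDCS* and 24.8 min without it, and 18.1 min with and 25.7 min without. The ends minus the belt from 20 to 50 kb gave 0.03 min with *SSDDCS* and 0.89 min without it in the *ars1008∆ ars1009∆* background, and 0.19 min with and 0.295 min without in the *ars816∆ ars818∆* background. The exact two-sided sign-flip test gave p = 0.125, the smallest it allows. The sign of 3 of these 4 small differences changed in other fits of the curve or without the outermost 5 kb. The timing described here was therefore not shown to be particular to the outermost 20 kb.

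Within the 20 kb the outermost bins were the latest. In the *sml1∆ SSDDCS* strains bins under 5 kb from the end had medians of 17.4 min in the *ars1008∆ ars1009∆* and 21.4 min in the *ars816∆ ars818∆* background, against 14.5 and 19.6 min at 15 to 20 kb. In the *sml1∆* strains they had 28.8 and 29.1 min in that order of backgrounds, against 25.1 and 25.4 min at 15 to 20 kb. Only 9 ends had bins under 5 kb, so the comparison was repeated within those ends. Their bins under 5 kb were later than their bins at 5 to 20 kb by a median of 2.04 min in *sml1∆ SSDDCS ars1008∆ ars1009∆* cells, with 7 of 9 ends in that direction. The median was 3.28 min in *sml1∆ ars1008∆ ars1009∆* cells, with 7 of 9 ends, and 1.72 min in *sml1∆ SSDDCS ars816∆ ars818∆* cells, again with 7 of 9. In *sml1∆ ars816∆ ars818∆* cells it was 0.995 min, with 5 of 9 ends. Between the outer and inner 10 kb of the same end no common direction was seen, with the outer part later at 10 of 21 ends in *sml1∆ SSDDCS ars1008∆ ars1009∆*, 9 of 21 in *sml1∆ ars1008∆ ars1009∆*, 9 of 20 in *sml1∆ SSDDCS ars816∆ ars818∆* and 11 of 21 in *sml1∆ ars816∆ ars818∆* cells.

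**Figure D2:**
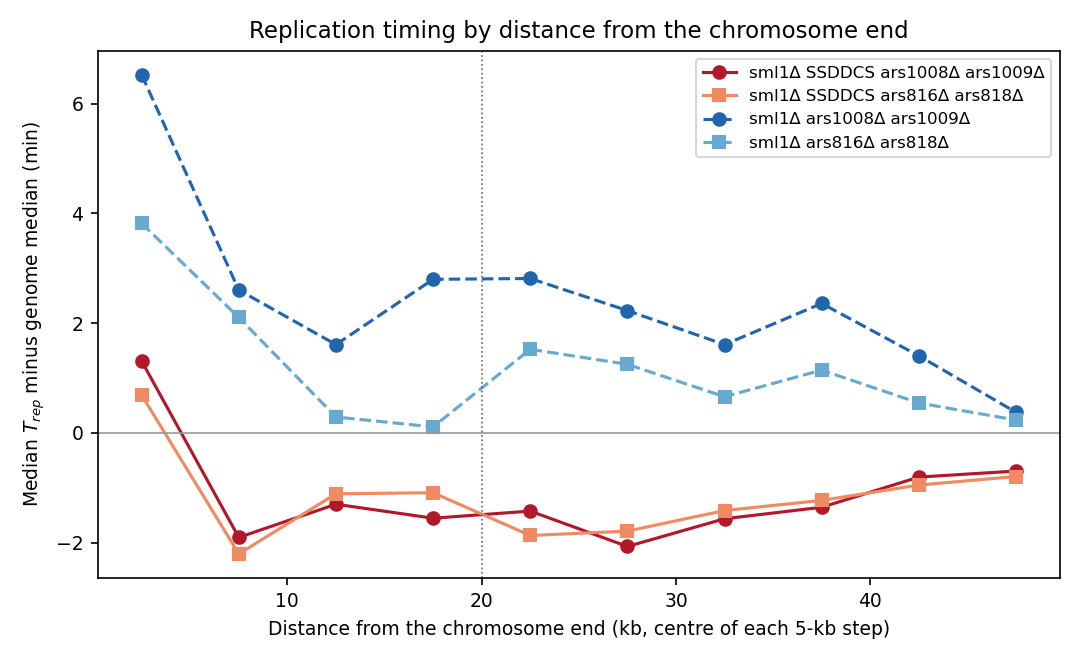
Median *T*_rep_ minus the genome median of the strain (min) against distance from the chromosome end (kb), in steps of 5 kb, for the *sml1∆ SSDDCS* strains (solid lines) and the *sml1∆* strains (dashed lines). The dotted line marks 20 kb. Beyond the outermost step the *sml1∆ SSDDCS* strains lie below 0 and the *sml1∆* strains above it out to 50 kb, and in the outermost step all 4 lie above 0, at 1.31, 6.53, 0.69 and 3.82 min in the order *sml1∆ SSDDCS ars1008∆ ars1009∆*, *sml1∆ ars1008∆ ars1009∆*, *sml1∆ SSDDCS ars816∆ ars818∆*, *sml1∆ ars816∆ ars818∆*.

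The difference between *sml1∆ SSDDCS* and *sml1∆* cells was then taken bin by bin within each background. In the *ars1008∆ ars1009∆* background the ends replicated a median of 10.1 min earlier with *SSDDCS*, and 295 of 298 bins were earlier. The genome as a whole was 5.51 min earlier. In the *ars816∆ ars818∆* background the ends were 7.04 min earlier, with 284 of 295 bins earlier, and the genome 4.18 min earlier. In both backgrounds together 281 of 294 end bins were earlier (95.6%), against 81.8% of all bins and 92.4% in the belt from 20 to 50 kb. Subtraction of the genome-wide median gives a centered difference, which leaves out what all bins share. Its median over the end bins was -4.605 min (quartiles -7.96 and -0.79) and -2.86 min (quartiles -6.01 and 0.05) in the *ars1008∆ ars1009∆* and the *ars816∆ ars818∆* background. Bins near centromeres had centered differences of 4.25 and 3.04 min, so they gained less than the median bin.

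Single bins were not tested, and a bin was called advanced where its centered difference was -5 min or less in both backgrounds. Of the 294 end bins measured in all 4 strains, 64 were advanced (21.8%), where 4.98% of the 11311 bins of the genome met the rule. The share was 14.9% in the belt from 20 to 50 kb and 0 of 313 bins near centromeres. A centered difference of 5 min or more in both backgrounds was found at 1 end bin, against 2.47% of all bins. In the *ars1008∆ ars1009∆* background alone 46.3% of the end bins were at -5 min or less (16.5% of all bins), and in the *ars816∆ ars818∆* background alone 32.0% (11.8% of all bins). The count was 118 with a threshold of 3 min and 5 with 10 min. No share of all bins is given at these thresholds, so the excess over the genome was not compared there. Of the advanced bins 22 lay within 10 kb of an end. In that range 28 bins under 5 kb and 64 at 5 to 10 kb held a value. A change of side was also counted. Of the 294 end bins, 67 were later than the strain median in both *sml1∆* strains and earlier than it in both *sml1∆ SSDDCS* strains. This was 22.8%, against 6.95% of all bins. The opposite change was made by 10 (3.40%, against 7.04% of all bins). In the belt from 20 to 50 kb the shares were 19.6% and 2.88%, close to those of the ends.

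Individual ends differed widely. Before centering, the median *T*_rep_ was earlier with *SSDDCS* at all 29 ends in both backgrounds. After centering, 21 of 29 ends were below 0 in both backgrounds, 10 at -5 min or less in both, 2 above 0 in both and 6 of opposite sign. The 21 ends with at least 5 bins fitted in all 4 strains are ordered below by their *T*_rep_ relative to the genome median.

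**Figure D3:**
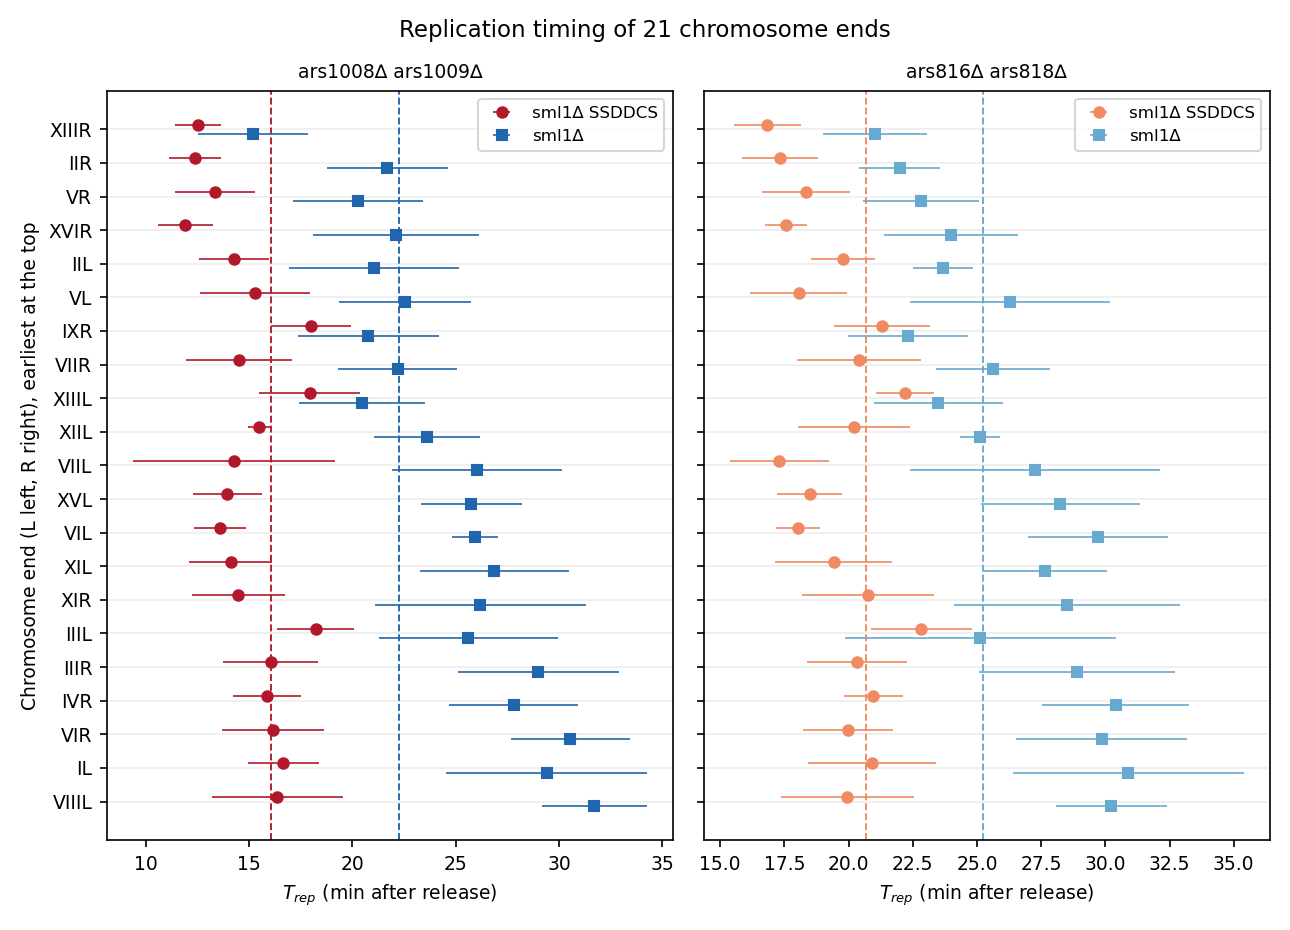
Median *T*_rep_ (min after release) of 21 chromosome ends with at least 5 bins, in *sml1∆ SSDDCS* cells (circles) and *sml1∆* cells (squares) of each background. Bars are the SD over the bins of an end and dashed lines the genome median of each strain. Ends span 6.30 min with *SSDDCS* and 16.5 min without it in the *ars1008∆ ars1009∆* background, and 6.01 min with and 9.88 min without in the *ars816∆ ars818∆* background.

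By the mean over the 4 strains of its median *T*_rep_ minus the genome median, the latest end was the left end of Chr VIII, which carries an annotated Y′ element and 15 bins from 5.5 kb inward. Its median *T*_rep_ was 16.4 ± 3.18 min in *sml1∆ SSDDCS ars1008∆ ars1009∆* cells and 31.7 ± 2.53 min in *sml1∆ ars1008∆ ars1009∆* cells (SD over bins). In the *ars816∆ ars818∆* background it was 19.95 ± 2.58 min with *SSDDCS* and 30.2 ± 2.17 min without. Its copy number at 25 min was 1.73 and 1.21 in the *sml1∆ SSDDCS* and *sml1∆* strains of the *ars1008∆ ars1009∆* background, and 1.75 and 1.36 in those of the *ars816∆ ars818∆* background. By the mean of both backgrounds this end also had the most negative centered difference of the 21, at -11.02 and -5.79 min. Its outermost bin with a value, which overlaps ARS801, had a *T*_rep_ of 10.8 min with *SSDDCS* and 29.3 min without it in the *ars1008∆ ars1009∆* background, and 13.1 min with and 32.85 min without in the *ars816∆ ars818∆* background.

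In single strains the order differed. The left end of Chr I was later than the left end of Chr VIII in every strain except *sml1∆ ars1008∆ ars1009∆*. The left end of Chr XIII and the right end of Chr IX were later than the left end of Chr VIII in both *sml1∆ SSDDCS* strains. In both *sml1∆ SSDDCS* strains the latest of the 21 ends was the left end of Chr III. Its median was 18.2 min in the *ars1008∆ ars1009∆* and 22.8 min in the *ars816∆ ars818∆* background. The other late ends by the mean were the left end of Chr I and the right ends of Chr VI and Chr IV. At the left end of Chr I the medians were 16.7 min with *SSDDCS* and 29.4 min without it in the *ars1008∆ ars1009∆* background, and 20.9 min with and 30.9 min without in the *ars816∆ ars818∆* background. At the fully covered right end of Chr VI they were 16.2 ± 2.48 min with *SSDDCS* and 30.5 ± 2.89 min without it, and 19.98 ± 1.75 min with and 29.9 ± 3.32 min without in the *ars816∆ ars818∆* background. Its centered differences were -8.65 and -6.11 min. At the right end of Chr IV they were 15.9 min with *SSDDCS* and 27.8 min without it, and 20.96 min with and 30.4 min without in the *ars816∆ ars818∆* background. These 4 ends were at or after 27.8 min in both *sml1∆* strains and lay within 1 min of the genome median in both *sml1∆ SSDDCS* strains.

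The earliest end by the same mean was the right end of Chr XIII. Its median *T*_rep_ was 12.5 ± 1.09 min with *SSDDCS* and 15.2 ± 2.65 min without it in the *ars1008∆ ars1009∆* background, and 16.8 ± 1.30 min with and 21.02 ± 2.03 min without in the *ars816∆ ars818∆* background. In the *sml1∆* strains it thus lay close to the bins near centromeres, whose medians were 16.1 min in the *ars1008∆ ars1009∆* and 20.75 min in the *ars816∆ ars818∆* background. The right ends of Chr II, Chr V and Chr XVI followed. The right end of Chr XVI had 11.9 ± 1.33 min with *SSDDCS*, the earliest value of any end in that strain, and 22.1 ± 4.03 min without it, and 17.6 ± 0.817 min with and 23.98 ± 2.61 min without in the *ars816∆ ars818∆* background. For the right end of Chr II the values were 12.4 min with *SSDDCS* and 21.7 min without it, and 17.3 min with and 21.99 min without in the *ars816∆ ars818∆* background. For the right end of Chr V they were 13.4 min with *SSDDCS* and 20.3 min without it, and 18.3 min with and 22.8 min without in the *ars816∆ ars818∆* background.

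Ordered by the mean centered difference of both backgrounds, the ends most advanced after the left end of Chr VIII were the left end of Chr VI and the right end of Chr VI, followed by the left end of Chr XV. The left end of Chr VI, with 7 bins of which 5 were fitted in all 4 strains, had -8.09 and -7.61 min in the *ars1008∆ ars1009∆* and the *ars816∆ ars818∆* background. Over the 5 shared bins it had -7.07 and -7.68 min, which no longer put it ahead of the right end of Chr VI, and by the first crossing of 1.5 the *ars816∆ ars818∆* value was -4.855 min. The left end of Chr XV had -6.53 and -5.59 min. These ends were not all late with *SSDDCS*, since the left ends of Chr VI and Chr XV had 13.6 and 13.96 min in *sml1∆ SSDDCS ars1008∆ ars1009∆* cells, ahead of the genome median of 16.1 min.

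The least advanced ends were the left end of Chr XIII and the right end of Chr IX, the 2 ends above 0 in both backgrounds. The left end of Chr XIII had 17.9 ± 2.46 min with *SSDDCS* and 20.5 ± 3.05 min without it, and 22.2 ± 1.12 min with and 23.5 ± 2.52 min without in the *ars816∆ ars818∆* background, which gave centered differences of 3.83 and 1.77 min, the second of them 3.19 min without the 20-min and 2.87 min without the 30-min sample. At the right end of Chr IX the medians were 18.0 ± 1.93 min with *SSDDCS* and 20.8 ± 3.41 min without it, and 21.3 ± 1.86 min with and 22.3 ± 2.35 min without in the *ars816∆ ars818∆* background, with centered differences of 2.92 and 2.65 min. Both ends were earlier with *SSDDCS* by less than the SD over their *sml1∆* bins, and both were after the genome median in the *sml1∆ SSDDCS* strains and before it in the *sml1∆* strains. The right ends of Chr XIII and Chr V came next, at 1.87 and -0.21 min and at -1.37 and 0.45 min, so neither had a constant sign. Without the 15-min sample the right end of Chr XIII had 0.58 and -0.67 min.

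**Figure D4:**
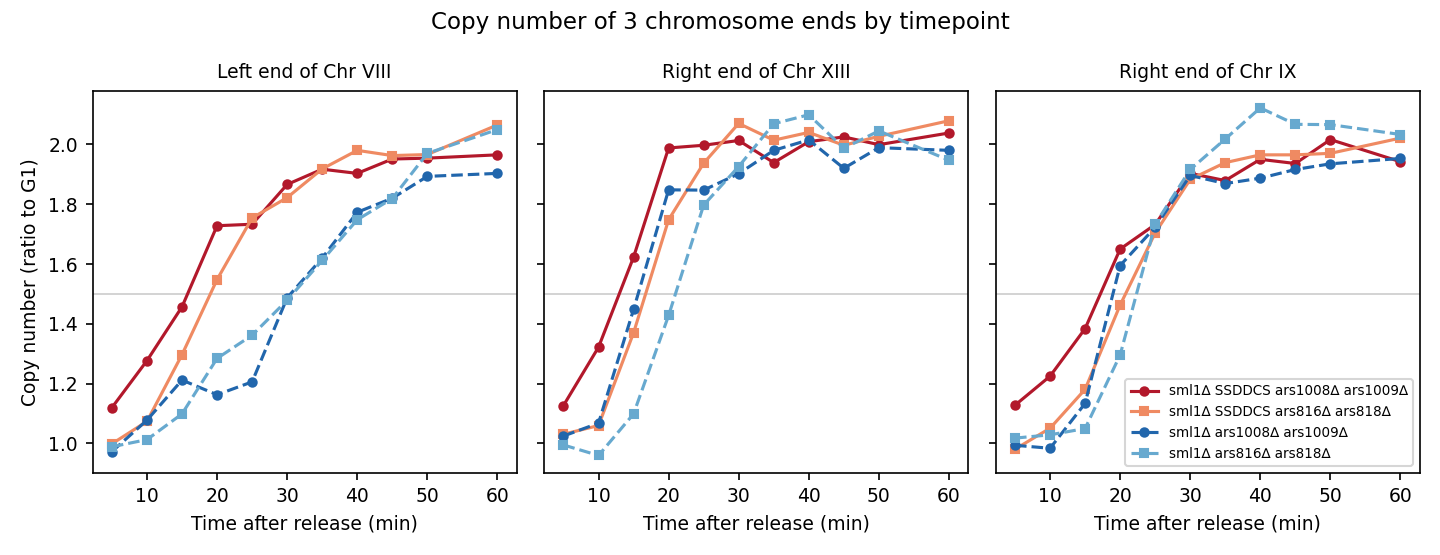
Median copy number (ratio to G1) of the bins of 3 chromosome ends against time after release (min), in the *sml1∆ SSDDCS* strains (solid lines) and the *sml1∆* strains (dashed lines). At the left end of Chr VIII the copy number at 25 min is 1.73 and 1.75 in the *sml1∆ SSDDCS* strains and 1.21 and 1.36 in the *sml1∆* strains, whereas at the right end of Chr IX the 4 strains lie between 1.70 and 1.73 at 25 min.

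The spread among ends was smaller with *SSDDCS*. The SD over 29 ends of the median *T*_rep_ was 1.85 min in *sml1∆ SSDDCS ars1008∆ ars1009∆* cells and 4.07 min in *sml1∆ ars1008∆ ars1009∆* cells, and 1.80 min with *SSDDCS* and 3.35 min without it in the *ars816∆ ars818∆* background. The median SD over bins within an end was 1.93 min with *SSDDCS* and 3.14 min without it, and 1.86 min with and 2.61 min without in the *ars816∆ ars818∆* background. Neighbors in the order of the 21 ends were closer than this median SD in every strain, except that the right end of Chr XIII preceded the next end by 5.09 min in *sml1∆ ars1008∆ ars1009∆* cells, and in the *sml1∆ SSDDCS* strains the spread between ends was about that within them.

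The order of ends was nonetheless shared by strains of the same kind. Over the 21 ends the medians of the 2 *sml1∆ SSDDCS* strains had a Pearson r of 0.867 (Spearman rho 0.852), and those of the 2 *sml1∆* strains 0.916 (rho 0.935). Between *sml1∆ SSDDCS* and *sml1∆* cells of the same background r was 0.358 (rho 0.345) for *ars1008∆ ars1009∆* and 0.216 (rho 0.249) for *ars816∆ ars818∆*. The centered differences of the 2 backgrounds had an r of 0.870 (rho 0.860). They were more negative at ends that were late in the *sml1∆* strain of the other background, with r = -0.816 (rho -0.805) for the *ars1008∆ ars1009∆* difference and -0.757 (rho -0.836) for the *ars816∆ ars818∆* difference. Each difference subtracts a *sml1∆* value, and the 2 *sml1∆* strains shared their order of ends. The subtraction itself therefore leads toward a negative r, also across backgrounds. These values describe 21 ends that share the mapping, the repeats and the libraries, and no p is given.

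**Figure D5:**
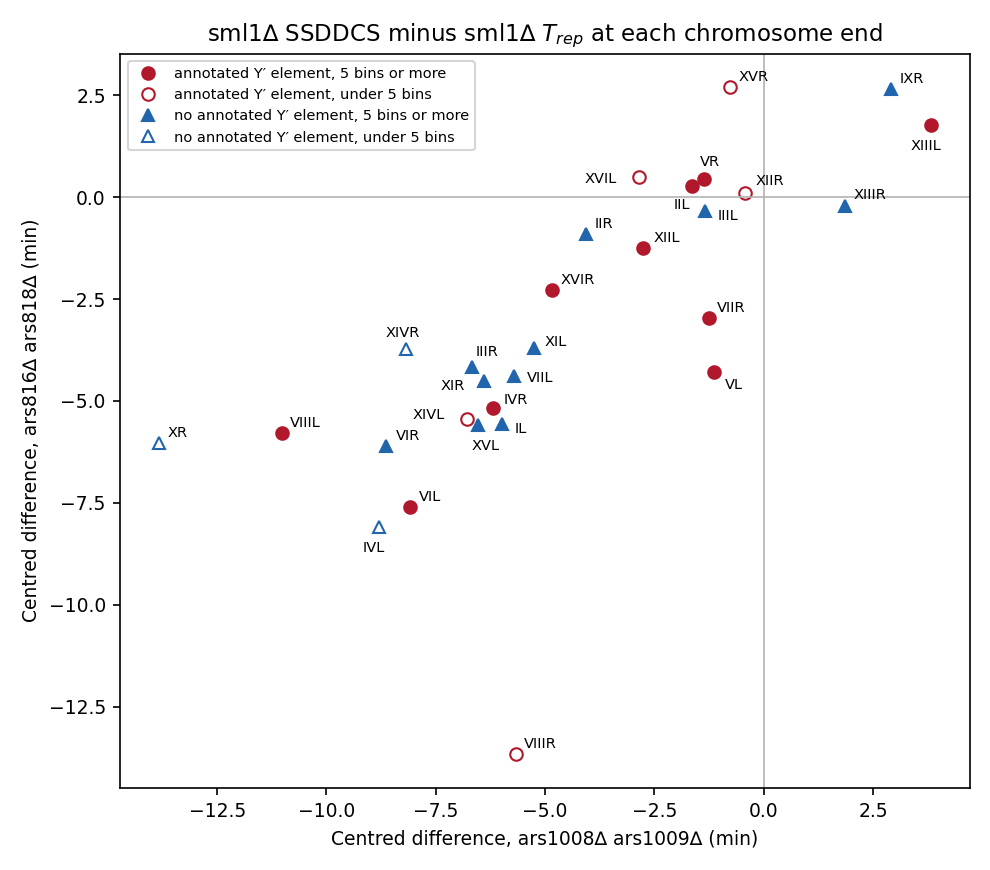
*sml1∆ SSDDCS* minus *sml1∆* *T*_rep_ (min) of each of 29 chromosome ends after subtraction of the genome-wide median, in the *ars1008∆ ars1009∆* background (x axis) and the *ars816∆ ars818∆* background (y axis). Circles carry an annotated Y′ element, triangles none, and open symbols have under 5 bins. Most ends lie at the lower left, 21 of 29 below 0 on both axes, and the left end of Chr XIII and the right end of Chr IX lie above 0 on both.

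Y′ elements, which encode the Yrf1 helicases and sit between the X element and the telomere repeats, are annotated at 15 of the 29 measured ends. In the *sml1∆* strains the ends with a Y′ element had earlier medians than those without. The medians over ends were 22.6 min with and 26.5 min without the element in *sml1∆ ars1008∆ ars1009∆* cells, and 25.1 min with and 27.95 min without it in *sml1∆ ars816∆ ars818∆* cells. In the *sml1∆ SSDDCS* strains the medians with and without it were 15.3 and 14.2 min in the *ars1008∆ ars1009∆* background and 19.8 and 19.7 min in the *ars816∆ ars818∆* background. The difference with minus without was thus -3.97 and -2.82 min in the *sml1∆* strains, and 1.075 and 0.0925 min in the *sml1∆ SSDDCS* strains, the last of which changed sign when a timepoint was left out. The 1.075 min was 0.405 min without the 10-min and 0.38 min without the 20-min sample. The exact two-sided permutation test of 2 strains against 2 gave p = 0.333, the smallest possible. The exact sign-flip test over the 4 strains, which pools both kinds, gave p = 0.5. The ranges overlapped in every strain, for example 18.55 to 31.7 min with and 15.2 to 30.9 min without the element in *sml1∆ ars1008∆ ars1009∆* cells. Y′ ends contributed 129 bins and the others 174. All 28 bins under 5 kb from an end, the latest by distance, lay at ends without the element. At Y′ ends the measured bins began 5.5 kb or further from the end. The 2 groups thus differed in the distances measured, which cannot be told apart here from the element. The annotation is of S288C, and which ends of the W303 strains carry the element was not tested.

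Of the 40 annotated origins in the outermost 20 kb, 25 had at least 1 bin within 2 kb that was fitted in all 4 strains, and 7 of these were read from a single bin. Their median *T*_rep_ was 14.55 min with *SSDDCS* and 25.1 min without it in the *ars1008∆ ars1009∆* background, and 19.5 min with and 25.3 min without in the *ars816∆ ars818∆* background. With *SSDDCS* 8 of the 25 were later than the genome median in each background. In the *sml1∆* strains 19 and 13 of 25 were, in the *ars1008∆ ars1009∆* and *ars816∆ ars818∆* backgrounds. Among all end bins the shares later than the genome median were 34.6% and 30.3% with *SSDDCS*, and 69.5% and 58.1% without. ARS301, ARS302, ARS303 and ARS320, all annotated as inactive, were among the 8 in both backgrounds. ARS302 and ARS303 had the same values. The centered difference was below 0 in both backgrounds at 16 of the 25, a share close to the 63.3% of end bins, against 33.9% of all bins.

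The earliest end origins by their mean over strains were ARS1333, ARS523, ARS736 and ARS1632. ARS736, a putative origin 6.61 kb from the right end of Chr VII, was read from 1 bin. It had the earliest values of the 25 in both *sml1∆ SSDDCS* strains. They were 10.3 min with and 21.3 min without *SSDDCS* in the *ars1008∆ ars1009∆* background, and 14.2 min with and 23.8 min without it in the *ars816∆ ars818∆* background. ARS523, whose consensus match is printed above, had 11.6 min with *SSDDCS* and 20.55 min without it, and 16.3 min with and 21.1 min without in the *ars816∆ ars818∆* background. ARS1632 had 11.4 min with *SSDDCS* and 19.3 min without it, and 17.6 min with and 23.8 min without in the *ars816∆ ars818∆* background. ARS1333 had 12.5 min with *SSDDCS* and 19.4 min without it, and 17.5 min with and 18.95 min without in the *ars816∆ ars818∆* background, and was read from 1 bin.

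The latest by the same mean were ARS300, ARS610, ARS102 and ARS301, of which ARS300, ARS610 and ARS102 lie within 1.03 kb of a chromosome end. ARS102, which carries the same 22-base run as ARS523, had 14.55 min with *SSDDCS* and 33.5 min without it in the *ars1008∆ ars1009∆* background, and 19.5 min with and 31.98 min without in the *ars816∆ ars818∆* background. Its centered differences were -13.4 and -8.33 min, from 1 bin. ARS610, at the right end of Chr VI, had 18.4 min with *SSDDCS* and 33.25 min without it, and 21.3 min with and 30.5 min without in the *ars816∆ ars818∆* background. ARS300 had 19.6 min with *SSDDCS* and 27.7 min without it, and 23.8 min with and 35.7 min without in the *ars816∆ ars818∆* background. ARS301 next to the silent mating cassette *HML*, which is annotated as inactive in the chromosome, had 16.9 min with *SSDDCS* and 23.7 min without it, and 25.6 min with and 31.3 min without in the *ars816∆ ars818∆* background. ARS301 was read from 1 bin.

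Subtelomeres are rich in gene families for sugar uptake, cell wall proteins and flocculation. The outermost 20 kb holds 251 annotated genes, of which 115 had a value in all 4 strains in the bin at their midpoint. Coverage was poor for the repeated families. None of the 8 *YRF1* helicase genes, 3 *HXT* hexose transporter genes, 4 thiamine synthesis genes of the *THI5* family, 2 acid phosphatase genes *PHO11* and *PHO12* and 2 *HML* genes had a value. Of 19 *PAU* genes, which encode cell wall mannoproteins, and 11 *COS* genes, 2 each were measured.

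Each value of a family member comes from a single bin. The *AAD* genes, putative aryl-alcohol dehydrogenases, had 4 of 6 members measured, with a median *T*_rep_ of 13.7 min with *SSDDCS* and 29.6 min without it in the *ars1008∆ ars1009∆* background, and 19.9 min with and 30.1 min without in the *ars816∆ ars818∆* background. By the mean over strains *AAD10* was the latest and *AAD3* the earliest of them, although *AAD4* was earlier than *AAD3* in both strains of the *ars1008∆ ars1009∆* background. *AAD10* had 13.05 min with *SSDDCS* and 30.4 min without it, and 22.6 min with and 32.8 min without in the *ars816∆ ars818∆* background, while *AAD3* had 14.3 min with *SSDDCS* and 28.9 min without it, and 18.5 min with and 21.1 min without in the *ars816∆ ars818∆* background. The *MAL* genes of maltose use had 4 of 8 *MAL* and *IMA* members measured, with medians of 13.9 min with *SSDDCS* and 23.4 min without it, and 19.3 min with and 25.6 min without in the *ars816∆ ars818∆* background. Of these *MAL31*, a maltose transporter gene, was the earliest by the mean over strains, although the activator gene *MAL33* was earlier in 3 of 4 strains. *MAL31* had 13.8 min with *SSDDCS* and 15.7 min without it, and 18.2 min with and 26.35 min without in the *ars816∆ ars818∆* background, and *MAL13*, an activator gene and the latest by that mean, had 18.3 min with *SSDDCS* and 23.6 min without it, and 20.8 min with and 30.3 min without in the *ars816∆ ars818∆* background.

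By the rule above *FLO10*, *PAU13* and *AAD10*, 3 of 14 measured family members, were advanced in both backgrounds, a share like that of the end bins as a whole (21.8%, against 4.98% of all bins). The flocculin gene *FLO10* had 13.6 min with *SSDDCS* and 25.4 min without it, and 16.5 min with and 28.5 min without in the *ars816∆ ars818∆* background. *PAU13*, on the left arm of Chr VIII, had 13.98 min with *SSDDCS* and 31.4 min without it, and 17.5 min with and 27.2 min without in the *ars816∆ ars818∆* background, whereas *PAU15*, on the right arm of Chr IX, had 19.1 min with *SSDDCS* and 20.8 min without it, and 20.7 min with and 26.4 min without in the *ars816∆ ars818∆* background. *COS9* had 11.35 min with *SSDDCS* and 25.4 min without it, and 16.5 min with and 22.2 min without in the *ars816∆ ars818∆* background, and *COS10* 15.4 min with *SSDDCS* and 24.0 min without it, and 16.2 min with and 25.45 min without in the *ars816∆ ars818∆* background. *CHA1*, the catabolic serine deaminase gene next to *HML*, had 16.9 min with *SSDDCS* and 24.0 min without it, and 20.06 min with and 24.0 min without in the *ars816∆ ars818∆* background. All 14 measured family members had an earlier *T*_rep_ with *SSDDCS* in both backgrounds before centering, as did 95.6% of end bins and 81.8% of all bins.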

How the data were processed

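Whole-genome sequencing of 4 strains gave 48 samples, of which 44 S-phase samples were used. The authors mapped reads to the S288C R64 genome, counted them in 1-kb bins and deposited the ratio of S-phase to G1 reads, scaled by a bulk value from flow cytometry. The submitters' processing notes list Bowtie2 2.3.4, SAMtools 1.7.2, bedtools 2.26.0 and sacCer3. A wrong bulk value would shift all bins of that sample by the same factor.

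Bins with at least 6 values were fitted with Python 3.11.15, numpy 2.4.6, pandas 2.3.3 and scipy 1.17.1, and figures drawn with matplotlib 3.10.9. *T*_rep_ was kept between 0 and 60 min. The form of the authors' own sigmoid is not given in the sources used here. Tests were exact permutations over strains. The fit was also run on data simulated from the same logistic form with a fixed width and noise level. That run does not test how well this form describes the measured bins. Named were the 4 earliest, 4 latest, 4 most and 4 least advanced ends with at least 5 bins fitted in all 4 strains, the 4 earliest and 4 latest origins, and the earliest and latest member of fixed gene families. The members and lists were chosen with earlier results of these data known. Alternatives were a curve with its upper asymptote left free, interpolation of the first crossing of 1.5, limits on residuals or missing values, rescaled bulk values, omission of each timepoint, other limits and thresholds, no centering, percentiles and medians over ends. Restriction to ends with at least 10 bins and omission of the outermost 5 kb were added after the data were examined.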

Additional observations from a re-analysis of the deposited data

Results flagged for a closer look

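At 6 chromosome ends the centered *sml1∆ SSDDCS* minus *sml1∆* difference had opposite signs in the 2 backgrounds. These were the left end of Chr II, with -1.64 min in the *ars1008∆ ars1009∆* background and 0.28 min in the *ars816∆ ars818∆* background, and the right end of Chr V, with -1.37 and 0.45 min in that order of backgrounds. The right end of Chr XII had -0.43 and 0.09 min, and the right end of Chr XIII 1.87 and -0.21 min. The right end of Chr XV had -0.76 and 2.7 min, and the left end of Chr XVI -2.85 and 0.5 min. The right ends of Chr XII and Chr XV and the left end of Chr XVI rest on 2, 3 and 3 bins. The differences between backgrounds were not tested.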

How the results depend on the processing

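With the strains paired by background, an alternative added after the data were seen, the end-minus-rest timing with *SSDDCS* minus without it was -4.24 and -2.265 min in the *ars1008∆ ars1009∆* and *ars816∆ ars818∆* backgrounds, with an exact two-sided sign-flip p = 0.5, the smallest 2 pairs allow. The end-minus-rest timing kept its sign in all 4 strains under every alternative tried. Against the belt from 20 to 50 kb the sign changed. With a free upper asymptote the difference was -0.23 and -0.18 min in *sml1∆ SSDDCS ars1008∆ ars1009∆* and *sml1∆ SSDDCS ars816∆ ars818∆* cells, and with the first crossing of 1.5 it was -0.305 and -0.12 min in those strains and -0.155 min in *sml1∆ ars816∆ ars818∆* cells. Without the outermost 5 kb it was -0.18, -0.025 and -0.11 min in the same 3 strains. Leaving out each timepoint moved it between -0.17 and 0.29 min in *sml1∆ SSDDCS ars1008∆ ars1009∆* cells. In *sml1∆ SSDDCS ars816∆ ars818∆* cells the difference from centromeres ranged from -0.19 to 0.245 min over the omitted timepoints and was 0.28 min with a limit of 10 kb. In that strain the Y′ difference ranged from -0.158 to 0.158 min and was -0.18 min over ends with at least 10 bins. The centered difference of the right end of Chr XIII in the *ars816∆ ars818∆* background was 0.05 min by the first crossing and 0.43 min with the residual limit of 0.15. The count of advanced bins, 64, was 22 with a limit of 10 kb, 118 and 5 with thresholds of 3 and 10 min, and 183 without centering. It was 59 to 71 over the omitted timepoints. No share of all bins is given beside these alternative counts. Without centering the differences of the ends were -10.1 and -7.04 min. The causes were not tested. Depth is unknown.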

Other observations

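The ends with under 5 bins fitted in all 4 strains, left out of the order of ends, included the most negative centered differences of all. These values were singled out after they were seen. The right end of Chr X, with 3 bins, had -13.8 min in the *ars1008∆ ars1009∆* background and -6.04 min in the *ars816∆ ars818∆* background. In the *ars816∆ ars818∆* background its 3 bins disagreed, at -6.71, -6.04 and 7.94 min. The right end of Chr VIII, with 4 bins of which 3 were fitted in all 4 strains, had -5.67 and -13.7 min. The left end of Chr IV, with 3 bins of which 2 were fitted in all 4 strains, had -8.80 and -8.08 min. The order of the backgrounds thus differed between the right ends of Chr X and Chr VIII, which was not tested.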
